A study of Homo sapiens with 12 samples.

Results

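The 42 genes described here encode proteins of base excision, mismatch and nucleotide excision repair and of DNA end joining, together with the alkyl transferase MGMT. They were taken by gene name from a table of 58302 genes, in which each of the 42 had an entry. By role they divide into 10 DNA glycosylases (UNG, SMUG1, TDG, MBD4, OGG1, MUTYH, NTHL1, NEIL1, NEIL2 and NEIL3) and 8 genes of base excision and single-strand break repair (APEX1, APEX2, PARP1, PARP2, XRCC1, POLB, LIG1 and LIG3). A further 5 act in mismatch repair (MSH3, MSH6, MLH3, PMS1 and PMS2) and 10 in nucleotide excision repair (ERCC1, ERCC2, ERCC3, ERCC4, ERCC5, ERCC6, ERCC8, XPA, DDB1 and RAD23B). The remaining 8 besides MGMT act in end joining (XRCC4, XRCC5, XRCC6, PRKDC, LIG4, NHEJ1, DCLRE1C and TP53BP1). RNA was sequenced from SU-DHL6 and OCI-LY3, established lines of human diffuse large B-cell lymphoma, which the labels assign to the germinal centre and the activated B-cell type. The 4 groups were selinexor-treated SU-DHL6, untreated SU-DHL6, selinexor-treated OCI-LY3 and untreated OCI-LY3, with 3 libraries each, and the labels give both lines as wild type. Selinexor is an inhibitor of XPO1, the receptor that carries many proteins and some RNAs out of the nucleus. The protocols name 300 and 100 nM and 24 and 48 h without tying a dose or time to a library, so dose and time may differ between the lines. Each group comes from 1 line, and how the replicate cultures were set up is not stated, so p-values measure the spread between these libraries only.

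Cells repair damaged bases by several routes. In base excision repair a glycosylase removes a damaged or misplaced base, an endonuclease cuts the strand, and a polymerase and a ligase fill and seal the gap. Mismatch repair corrects errors left by DNA polymerases, and nucleotide excision repair cuts out a stretch of strand that holds a bulky lesion. Non-homologous end joining ligates the ends of a double-strand break after the Ku proteins have bound them. In germinal centre B cells the same pathways take part in antibody diversification: the deaminase AID turns cytosine into uracil in immunoglobulin genes, UNG and the mismatch proteins process the uracil, and end joining completes class switching.

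RefSeq promoter sequence was found for 37 of the 42 genes, and the 250 bases before the annotated start were searched on both strands for the letters TTTCCCGC, TTTCGCGC, TTTGCCGC and TTTGGCGC, forms of the site bound by E2F factors. Such a match was present in 3 of the 37 (8.1%), against 761 of 27305 promoters in the table (2.8%). The 4 promoters below belong to UNG, NEIL3 and LIG1, whose transcripts had the greatest falls on the log2 scale among the 42 in SU-DHL6, and to PMS2, which rose in both lines. They are printed 5′ to 3′ on the gene's strand (build GRCh38.p14), with a match in capitals. UNG lies at chr12:109097347-109097596 on the plus strand, NEIL3 at chr4:177309624-177309873 on the plus strand, LIG1 at chr19:48170345-48170594 on the minus strand and PMS2 at chr7:6009107-6009356 on the minus strand.
UNG: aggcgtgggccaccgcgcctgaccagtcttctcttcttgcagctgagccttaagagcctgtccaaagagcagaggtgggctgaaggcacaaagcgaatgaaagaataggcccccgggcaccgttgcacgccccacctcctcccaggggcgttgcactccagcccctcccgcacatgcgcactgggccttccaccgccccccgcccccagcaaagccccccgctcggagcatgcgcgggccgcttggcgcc
NEIL3: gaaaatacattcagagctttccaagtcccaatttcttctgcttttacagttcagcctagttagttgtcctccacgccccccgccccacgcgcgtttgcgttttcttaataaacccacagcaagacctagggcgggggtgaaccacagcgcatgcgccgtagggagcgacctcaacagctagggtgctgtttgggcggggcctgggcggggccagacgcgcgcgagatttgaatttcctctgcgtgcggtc
LIG1: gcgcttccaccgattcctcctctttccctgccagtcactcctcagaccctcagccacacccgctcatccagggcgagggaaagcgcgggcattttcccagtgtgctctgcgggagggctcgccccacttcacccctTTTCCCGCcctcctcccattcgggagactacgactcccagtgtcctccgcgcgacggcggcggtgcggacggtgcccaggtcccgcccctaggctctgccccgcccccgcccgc
PMS2: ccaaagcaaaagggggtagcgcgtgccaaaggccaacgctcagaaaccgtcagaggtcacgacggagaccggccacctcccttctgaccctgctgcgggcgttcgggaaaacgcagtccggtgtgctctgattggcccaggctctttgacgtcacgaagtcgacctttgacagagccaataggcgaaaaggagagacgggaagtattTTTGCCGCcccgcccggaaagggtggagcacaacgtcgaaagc
The match starts 114 bases before the RefSeq start of LIG1 and 43 bases before that of PMS2, and these windows of UNG and NEIL3 hold none of the 4 forms. The LIG1 window lies wholly inside the gene coordinates given below (48115445 to 48170603), whose start is further upstream than the RefSeq start. MSH3 carried 2 overlapping matches, 107 and 103 bases before its start. A match describes the letters only, and the 3 genes that hold one differed in their response: LIG1 fell in both lines, PMS2 rose in both, and MSH3 fell in OCI-LY3 with no call in SU-DHL6.

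Library totals were 14210200 to 16405842 counts, and 16474 genes passed the filter on low counts, all 42 repair genes among them. MGMT passed only through OCI-LY3, since it had 0 counts in every SU-DHL6 library. The activated B-cell type list of 5 markers summed to 3216 to 3279 CPM (counts relative to the scaled library total) in untreated OCI-LY3 and 297.5 to 336.7 CPM in untreated SU-DHL6, and the germinal centre list of 5 to 133.2 to 137.7 and 478.9 to 498.6 CPM in the same order. The T-cell list of 3 stayed at or below 2.17 CPM. The myeloid list of 3 summed to 0.486 to 0.720 CPM in treated and 0 to 0.373 CPM in untreated SU-DHL6, and to 3.96 to 4.61 CPM in treated and 0.421 to 1.18 CPM in untreated OCI-LY3. Its only member to pass the low-count filter, CSF1R, rose in OCI-LY3 (2.23 ± 0.38, adjusted p = 0.000266), and LYZ had 0 counts in all libraries. The part of this in the OCI-LY3 values below was not tested. The collagen gene COL1A1 had 315 to 506 counts in OCI-LY3 libraries and at most 3 in SU-DHL6. In a list of 30 DNA replication genes, 29 fell in treated SU-DHL6 (median log2 fold change -2.41) and 28 in treated OCI-LY3 (-1.45). Its summed level was 1155 to 1252 CPM in treated and 5975 to 6462 CPM in untreated SU-DHL6, and 2261 to 2416 CPM in treated and 5029 to 5377 CPM in untreated OCI-LY3. This fall occurred in the same treated groups as the repair gene falls below, and its part in them was not tested. Of the repair genes, 7 fell in both lines, beside 8.83% of all genes (calls as defined below). Another 7 fell in OCI-LY3 alone and 4 in SU-DHL6 alone, patterns for which the share of all genes was not counted. In such bulk libraries, fewer cells making a transcript and less of it per cell cannot be told apart.

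Selinexor was followed by falls and rises within the same pathways, and most repair genes moved by less than 2-fold. In treated SU-DHL6, 6 of the 41 genes with counts rose, against a background of 20.4% of all genes tested, and 11 fell, against 22.8% (43.2% in either direction). In treated OCI-LY3, 9 of the 42 rose, against 22.2% of all genes, and 14 fell, against 22.2% (44.4% in either direction). A call here is a Benjamini-Hochberg adjusted p under 0.05 in the edgeR quasi-likelihood test over all genes. The rises were thus below the background share in SU-DHL6 (14.6% of the 41) and close to it in OCI-LY3 (21.4%), the falls in SU-DHL6 were near it (26.8%) and the falls in OCI-LY3 were above it (33.3%). Scaling by total counts alone put the median of all genes at 0.27 in SU-DHL6 and at -0.09 in OCI-LY3. It gave 13 rises and 9 falls in SU-DHL6 and 8 rises and 17 falls in OCI-LY3. Over all 16474 genes it gave 5451 rises and 2367 falls in SU-DHL6 and 2939 rises and 4388 falls in OCI-LY3. The median log2 fold change of the 41 was -0.10 in SU-DHL6 and that of the 42 was -0.20 in OCI-LY3, beside medians over all genes of 0.00 in both. Only 6 genes were called with a change of at least 2-fold in SU-DHL6 (NEIL3, LIG1, UNG, MUTYH and XRCC1 lower, XPA higher) and 3 in OCI-LY3 (NEIL3 and LIG1 lower, SMUG1 higher).

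**Figure D1:**
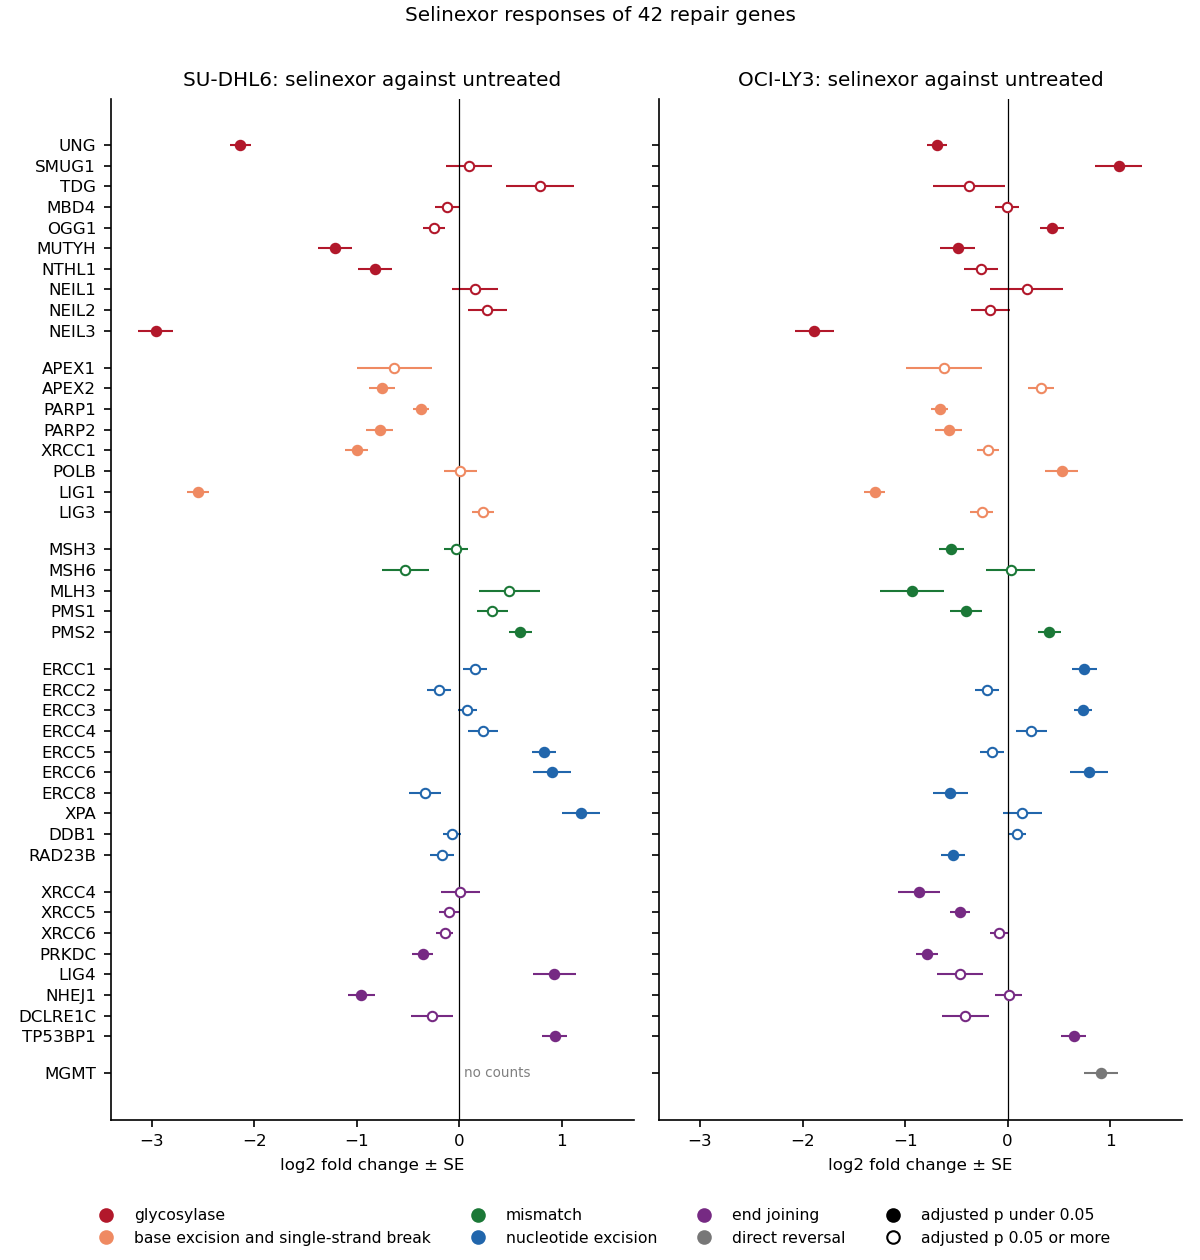
Log2 fold change of each repair gene, selinexor-treated against untreated, in SU-DHL6 (left) and OCI-LY3 (right), grouped by role. Points show the estimate with its SE, filled where the adjusted p is under 0.05. NEIL3, LIG1 and UNG lie farthest to the left in SU-DHL6, at -2.96, -2.55 and -2.14.

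Both lines shared 7 falls (UNG, MUTYH, NEIL3, PARP1, PARP2, LIG1 and PRKDC), 17.1% of the 41 beside 8.83% of all genes. They shared 3 rises (PMS2, ERCC6 and TP53BP1), 7.32% beside 5.95%. No repair gene was called in opposite directions in the lines, as were 3.37% of all genes (higher in SU-DHL6, lower in OCI-LY3) and 4.43% (lower in SU-DHL6, higher in OCI-LY3). Another 7 genes were called in SU-DHL6 and not in OCI-LY3, 12 with counts in both lines in OCI-LY3 and not in SU-DHL6, and 12 in neither. The shares of all genes with these patterns were not counted, so these numbers stand without a background. Those calls do not by themselves separate the lines, so the response in SU-DHL6 minus the response in OCI-LY3 was tested for each gene. This difference was called for 20 of the 41 genes, 9 higher and 11 lower in SU-DHL6, beside 17.0% and 19.9% of all genes (36.9% in either direction).

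The DNA glycosylases held the strongest fall of the 42 in each line. UNG removes uracil from DNA, NEIL3 removes oxidised bases and acts at crosslinks in replicating DNA, and both fell in both lines, more in SU-DHL6. UNG (ENSG00000076248, chromosome 12, 109097574 to 109110992) had 37.2, 30.4 and 32.2 CPM in treated SU-DHL6, against 143, 145 and 151 CPM in untreated SU-DHL6. In OCI-LY3 it had 81.5, 71.6 and 69.2 CPM treated, against 117, 121 and 120 CPM untreated. No treated library reached an untreated one in either line, and the treated SU-DHL6 libraries lay below all others. The log2 fold change was -2.14 ± 0.10 (SE) in SU-DHL6, or 4.39-fold lower (adjusted p = 1.77e-09), and -0.69 ± 0.10 in OCI-LY3 (adjusted p = 6.13e-05). The difference of the responses was -1.45 ± 0.14 (adjusted p = 3.76e-06).

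NEIL3 (chromosome 4, 177309836 to 177362943) had 9.52, 8.16 and 6.63 CPM in treated SU-DHL6, against 75.0, 56.4 and 57.8 CPM in untreated SU-DHL6. Its OCI-LY3 values were 2.41, 3.23 and 3.55 CPM treated, against 10.8, 12 and 11.2 CPM untreated. Every treated library lay below every untreated one, even across the lines. It fell by 2.96 ± 0.17 on the log2 scale in SU-DHL6 (7.78-fold lower) and by 1.89 ± 0.19 in OCI-LY3 (3.69-fold lower), with a difference of -1.07 ± 0.25 (adjusted p = 0.00387). MUTYH removes adenine placed opposite oxidised guanine. It had 11.1, 8.11 and 9.57 CPM in treated SU-DHL6 and 17.9, 25.5 and 23.2 CPM in untreated SU-DHL6, and fell by 1.21 ± 0.16. In OCI-LY3 MUTYH had 10.2, 8.05 and 9.66 CPM treated and 13.4, 12.4 and 13.4 CPM untreated, a log2 fold change of -0.49 ± 0.17 (adjusted p = 0.0300). This last call was lost when any 1 of 5 OCI-LY3 libraries was left out, the exception being treated library 1 (adjusted p 0.0504 to 0.128). The difference of -0.72 ± 0.23 (adjusted p = 0.0266) was lost without any 1 of 6 libraries (adjusted p 0.0527 to 0.0745). MUTYH shares 14.1% of its exonic bases with TOE1 on the opposite strand, which also fell in both lines (-1.09 ± 0.13 and -0.89 ± 0.14), and the strand setting of the counting is not given.

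SMUG1 and OGG1 rose in OCI-LY3 with no call in SU-DHL6. SMUG1, a second uracil glycosylase, had 21.3, 21.6 and 14.0 CPM in treated OCI-LY3, above the 9.68, 10.5 and 6.69 CPM of untreated OCI-LY3, a rise of 1.08 ± 0.23 (adjusted p = 0.00179). In SU-DHL6 it had 17.2, 11.0 and 18.6 CPM treated and 16.0, 15.3 and 12.4 CPM untreated, ranges that overlapped. Its difference of -0.98 ± 0.32 (adjusted p = 0.0284) was lost without any 1 of 6 libraries (adjusted p 0.0564 to 0.0711). OGG1, which excises oxidised guanine, had 47.0, 41.4 and 48.6 CPM in treated SU-DHL6 and 49.8, 54.1 and 58.7 CPM in untreated SU-DHL6, with no call (-0.25 ± 0.11, adjusted p = 0.0873). Its OCI-LY3 values were 11.3, 14.0 and 12.8 CPM treated and 9.40, 9.27 and 9.55 CPM untreated, a rise of 0.43 ± 0.12 (adjusted p = 0.0101) that was lost without treated library 2 (0.0517). The OGG1 difference was -0.68 ± 0.16 (adjusted p = 0.00509), but -0.30 under scaling by total counts (adjusted p = 0.175). NTHL1, for oxidised pyrimidines, fell in SU-DHL6 (-0.82 ± 0.16), and its difference from OCI-LY3 was not called (adjusted p = 0.0704). NTHL1 shares 16.5% of its exonic bases with TSC2.

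Neither line gave a call for TDG, MBD4, NEIL1 or NEIL2. TDG, which acts on thymine and uracil opposite guanine, had 51.3, 56.0 and 23.7 CPM in treated SU-DHL6 and 19.7, 38.4 and 17.6 CPM in untreated SU-DHL6, so replicates of a group lay over 2-fold apart. Its change of 0.79 ± 0.33 missed the threshold (adjusted p = 0.0779). It was called with DESeq2 (0.79, adjusted p = 0.0274), with total counts (1.05, adjusted p = 0.0187) and without treated library 3 or untreated library 2 (1.08 to 1.22, adjusted p 0.00546 to 0.00665). NEIL1 had 7 to 13 counts in each OCI-LY3 library, too few to resolve a moderate change (95% interval of the log2 fold change -0.51 to 0.89). Over the group of 10, no glycosylase rose in SU-DHL6 and 4 fell, beside 20.4% and 22.8% of all genes. In OCI-LY3, 2 rose and 3 fell, close to the 22.2% of all genes in each direction. The 5 called differences were lower in SU-DHL6, beside 19.9% of all genes, and those of SMUG1, OGG1 and MUTYH were lost under scaling by total counts (-0.60, -0.30 and -0.34, adjusted p 0.166 to 0.256).

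Among the 8 genes downstream of the glycosylases, the replicative ligase gene LIG1 fell most. LIG1 joins Okazaki fragments and seals long-patch repair. LIG1 (chromosome 19, 48115445 to 48170603) had 35.6, 36.5 and 33.0 CPM in treated SU-DHL6, against 184, 211 and 219 CPM in untreated SU-DHL6. It had 57.8, 58.1 and 47.3 CPM in treated OCI-LY3, against 128, 131 and 142 CPM in untreated OCI-LY3. The groups stood far apart in both lines, with a log2 fold change of -2.55 ± 0.11 in SU-DHL6 (5.84-fold lower, adjusted p = 6.75e-10) and -1.30 ± 0.11 in OCI-LY3 (2.46-fold lower, adjusted p = 3.55e-07). The difference was -1.25 ± 0.15 (adjusted p = 2.35e-05).

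LIG3, the ligase that works with XRCC1, did not follow LIG1. It had 34.2, 40.9 and 38.8 CPM in treated SU-DHL6 and 30.1, 33.2 and 33.8 CPM in untreated SU-DHL6, and 33.1, 37.6 and 33.6 CPM in treated and 43.9, 38.0 and 42.5 CPM in untreated OCI-LY3. Neither response was called (0.23 ± 0.11 and -0.25 ± 0.11). The difference of 0.48 ± 0.15 (adjusted p = 0.0239) was lost without any 1 of 5 libraries (adjusted p 0.0530 to 0.0667). LIG3 shares 29.1% of its exonic bases with RFFL on the opposite strand, and RFFL moved the other way (-0.72 ± 0.12 in SU-DHL6, 0.29 ± 0.11 in OCI-LY3). XRCC1, the scaffold of single-strand break repair, had 27.7, 24.9 and 30.8 CPM in treated SU-DHL6, against 49.2, 59.5 and 58.4 CPM in untreated SU-DHL6, and fell by 1.00 ± 0.11 (adjusted p = 5.67e-06). Its OCI-LY3 libraries were at 54.6, 53.3 and 53.9 CPM treated and 64.5, 60.5 and 59.4 CPM untreated, with no call (-0.19 ± 0.11, adjusted p = 0.170). The XRCC1 difference was -0.81 ± 0.15 (adjusted p = 0.000835).

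APEX2, an abasic site endonuclease with strong exonuclease activity, gave the other clear difference. It had 54.5, 46.3 and 47.9 CPM in treated SU-DHL6, against 66.9, 94.0 and 89.6 CPM in untreated SU-DHL6, and fell by 0.75 ± 0.13 (adjusted p = 0.000264). In OCI-LY3 APEX2 had 44.4, 43.5 and 43.0 CPM treated, above 35.6, 31.9 and 37.0 CPM untreated, but the change of 0.33 ± 0.13 was not called (adjusted p = 0.0515, and 0.0110 to 0.0449 without untreated SU-DHL6 library 1 or 2). The difference was -1.08 ± 0.18 (adjusted p = 0.000345). APEX1 is the main abasic site endonuclease. It had 57.1, 62.1 and 46.8 CPM in treated and 54.7, 60.0 and 143 CPM in untreated SU-DHL6, so that untreated library 3 alone set its mean and no call was made. In OCI-LY3 APEX1 had 59.3, 49.4 and 67.5 CPM treated and 110.5, 100.3 and 60.0 CPM untreated, with no call (-0.62 ± 0.37, adjusted p = 0.203). This fall was called when the high SU-DHL6 library was left out of the shared fit (-0.63, adjusted p = 0.0256).

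The poly(ADP-ribose) polymerase genes PARP1 and PARP2, whose products mark strand breaks, fell in both lines. PARP1 changed by -0.38 ± 0.08 in SU-DHL6 and -0.66 ± 0.08 in OCI-LY3, and PARP2 by -0.78 ± 0.13 and -0.57 ± 0.13. Neither difference was called, with 95% intervals of 0.07 to 0.51 for PARP1 (adjusted p = 0.0593) and -0.57 to 0.16 for PARP2. Under scaling by total counts the SU-DHL6 fall of PARP1 was lost (-0.11, adjusted p = 0.269). The PARP1 difference was called in 4 alternative settings: total counts (0.67, adjusted p = 0.000295), offsets for GC content and gene length (0.49, adjusted p = 0.000408), DESeq2 (0.27, adjusted p = 0.0186) and a filter of at least 1 CPM in 3 libraries (0.30, adjusted p = 0.0410). POLB, the gap-filling polymerase, rose in OCI-LY3 (0.53 ± 0.16, adjusted p = 0.0149), a call lost without untreated library 2 or treated library 3 (adjusted p 0.0657 to 0.0770). In SU-DHL6 its change was 0.01 ± 0.16. As a group, 5 of these 8 genes fell and none rose in SU-DHL6, beside 22.8% and 20.4% of all genes, while 3 fell and 1 rose in OCI-LY3, beside 22.2% each.

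Of the 5 mismatch repair genes, 1 rose and none fell in SU-DHL6 (20.4% and 22.8% of all genes), and 1 rose and 3 fell in OCI-LY3 (22.2% each), so that the single rises lie at the background. MSH3, a subunit of the MutS complex that binds insertion loops, had 22.4, 23.8 and 22.8 CPM in treated SU-DHL6 and 25.2, 22.2 and 23.1 CPM in untreated SU-DHL6, all within a narrow range. In OCI-LY3 it had 13.9, 15.2 and 18.0 CPM treated, below 22.6, 22.2 and 24.1 CPM untreated, a fall of 0.55 ± 0.12 (adjusted p = 0.00189). The difference was 0.52 ± 0.17 (adjusted p = 0.0254), lost without any 1 of 5 libraries (adjusted p 0.0576 to 0.0709). MLH3, a MutL-type protein, had 12.9, 10.8 and 10.2 CPM in treated and 11.4, 4.41 and 8.45 CPM in untreated SU-DHL6, where the untreated replicates spread over 2-fold. In OCI-LY3 MLH3 had 4.43, 6.32 and 5.96 CPM treated, below 10.9, 7.23 and 13.8 CPM untreated. That fall of 0.93 ± 0.31 (adjusted p = 0.0262) was lost without untreated library 1 or 3 or treated library 1 or 3 (adjusted p 0.0576 to 0.113), and the difference of 1.42 ± 0.43 (adjusted p = 0.0202) was lost without untreated library 3 or treated library 1 of OCI-LY3 (adjusted p 0.0538 to 0.0545).

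PMS1, another MutL-type protein, had 27.6, 34.5 and 28.0 CPM in treated and 29.4, 20.3 and 22.4 CPM in untreated SU-DHL6, with overlap. Its OCI-LY3 values were 12.1, 13.2 and 15.6 CPM treated and 17.7, 17.8 and 18.6 CPM untreated, a fall of 0.40 ± 0.16 at the edge of the threshold (adjusted p = 0.0492) that was lost without any 1 of 7 libraries (adjusted p 0.0560 to 0.167). The PMS1 difference was 0.73 ± 0.22 (adjusted p = 0.0174), lost without treated SU-DHL6 library 2 (adjusted p = 0.0519). PMS2, the endonuclease subunit of the main mismatch complex, was the only one of the 5 to rise, by 0.60 ± 0.11 in SU-DHL6 (adjusted p = 0.000592) and by 0.41 ± 0.12 in OCI-LY3 (adjusted p = 0.0103). The OCI-LY3 rise was lost without untreated library 2 (adjusted p = 0.0614) and under scaling by total counts (0.29, adjusted p = 0.0714). MSH6, which recognises single mismatches, had 51.5, 25.0 and 23.3 CPM in treated OCI-LY3 and 33.0, 34.1 and 30.8 CPM in untreated OCI-LY3. Treated library 1 decided its value there: the log2 fold change was 0.03 ± 0.24 with it and -0.43 without it (adjusted p = 0.00940). In SU-DHL6 all treated MSH6 values lay below the untreated ones (136 to 145 against 189 to 227 CPM), with no call (adjusted p = 0.0856).

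Of the 10 nucleotide excision repair genes, 3 rose and none fell in SU-DHL6, beside 20.4% and 22.8% of all genes, and 3 rose and 2 fell in OCI-LY3, near the 22.2% of all genes in each direction. XPA, which verifies the lesion, had 15.9, 16.4 and 16.0 CPM in treated SU-DHL6, against 5.83, 7.33 and 8.02 CPM in untreated SU-DHL6, and rose by 1.19 ± 0.19 (2.28-fold, adjusted p = 0.000148). Its OCI-LY3 values overlapped, at 10.2, 8.42 and 11.5 CPM treated and 11.1, 9.13 and 6.98 CPM untreated. The difference was 1.04 ± 0.26 (adjusted p = 0.00641). ERCC5, the nuclease that cuts 3′ of the lesion, had 84.9, 100.4 and 91.2 CPM in treated SU-DHL6, against 60.4, 43.8 and 52.2 CPM in untreated SU-DHL6. It rose by 0.82 ± 0.12 (adjusted p = 6.75e-05). In OCI-LY3 ERCC5 had 47.7, 49.5 and 52.2 CPM treated and 56.4, 52.2 and 57.2 CPM untreated, with no call (-0.15 ± 0.12), and the difference was 0.97 ± 0.17 (adjusted p = 0.000410). ERCC5 shares 63.2% of its exonic bases with a readthrough transcript of low count (mean 11.7).

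ERCC3, the helicase of the repair and transcription factor TFIIH, and ERCC1, the partner of the ERCC4 nuclease, rose in OCI-LY3. ERCC3 had 60.9, 63.7 and 56.9 CPM in treated SU-DHL6 and 56.7, 56.3 and 58.8 CPM in untreated SU-DHL6, which overlap. Its OCI-LY3 values were 55.8, 55.3 and 54.4 CPM treated, above 35.3, 32.9 and 31.2 CPM untreated. The treated OCI-LY3 level thus lay close to that of SU-DHL6, after a rise of 0.73 ± 0.09 (adjusted p = 1.89e-05), and the difference was -0.66 ± 0.13 (adjusted p = 0.00118). ERCC1 had 82.9, 72.8 and 76.3 CPM in treated and 62.0, 74.8 and 72.0 CPM in untreated SU-DHL6. In OCI-LY3 it had 159, 159.5 and 127 CPM treated, above 76.8, 94.9 and 93.2 CPM untreated, a rise of 0.75 ± 0.12 (adjusted p = 0.000174). The ERCC1 difference was -0.60 ± 0.17 (adjusted p = 0.0133). ERCC1 shares 28.6% of its exonic bases with CD3EAP on the opposite strand, which fell in OCI-LY3 (-0.38 ± 0.12) and rose in SU-DHL6 (1.10 ± 0.12), opposite to the ERCC1 difference. Scaling by total counts ended the calls of the ERCC1 and ERCC3 differences (adjusted p = 0.302 and 0.110), and offsets for GC content and gene length ended that of ERCC1 (adjusted p = 0.0650).

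ERCC6 and ERCC8 serve transcription-coupled repair, and they moved apart. ERCC6 rose by 0.90 ± 0.18 in SU-DHL6 (adjusted p = 0.00120) and by 0.79 ± 0.19 in OCI-LY3 (adjusted p = 0.00328), while ERCC8 fell in OCI-LY3 by 0.56 ± 0.17 (adjusted p = 0.0161) and was not called in SU-DHL6 (-0.34 ± 0.16). The ERCC8 fall was lost without untreated library 2 or treated library 2 (adjusted p 0.0625 to 0.0823). RAD23B, a subunit of a damage sensor, fell in OCI-LY3 by 0.53 ± 0.12 (adjusted p = 0.00205). DDB1, a subunit of a damage-binding ubiquitin ligase, ERCC2, the other TFIIH helicase, and ERCC4 were called in neither line, and the 95% interval for DDB1 was -0.24 to 0.10 in SU-DHL6 and -0.08 to 0.26 in OCI-LY3.

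The 8 end joining genes included 2 rises and 2 falls in SU-DHL6, near the 20.4% and 22.8% of all genes, and 1 rise and 3 falls in OCI-LY3, beside 22.2% each. LIG4 is the ligase of the pathway, and XRCC4 and NHEJ1 are its cofactors. LIG4 had 26.3, 31.2 and 25.8 CPM in treated SU-DHL6, against 18.2, 11.7 and 13.9 CPM in untreated SU-DHL6, and rose by 0.93 ± 0.21 (adjusted p = 0.00293). In OCI-LY3 LIG4 had 6.52, 11.0 and 7.93 CPM treated and 10.9, 14.8 and 9.48 CPM untreated, which overlap, with no call (-0.47 ± 0.22, adjusted p = 0.106). Without treated library 2 the OCI-LY3 change was called as lower (-0.69, adjusted p = 0.0311). The difference was 1.39 ± 0.31 (adjusted p = 0.00278). NHEJ1 went the other way: it had 9.69, 9.19 and 8.29 CPM in treated SU-DHL6, against 15.1, 18.3 and 19.4 CPM in untreated SU-DHL6, and fell by 0.95 ± 0.13 (adjusted p = 5.94e-05). Its OCI-LY3 values overlapped at 18.0, 18.3 and 18.8 CPM treated and 16.7, 18.1 and 19.8 CPM untreated, and the difference was -0.97 ± 0.19 (adjusted p = 0.00109). XRCC4 had 9.19, 10.7 and 7.38 CPM in treated and 10.8, 8.08 and 8.16 CPM in untreated SU-DHL6, a change of 0.01 ± 0.19. In OCI-LY3 XRCC4 had 4.12, 3.46 and 4.30 CPM treated, below 6.20, 8.63 and 6.83 CPM untreated, a fall of 0.87 ± 0.21 (adjusted p = 0.00361). Its difference of 0.88 ± 0.28 (adjusted p = 0.0256) was lost without any 1 of 4 libraries (adjusted p 0.0624 to 0.0772).

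Of the subunits of DNA-dependent protein kinase, the catalytic subunit gene PRKDC fell in both lines. PRKDC had 709, 935 and 837 CPM in treated SU-DHL6, against 1133, 1053 and 994 CPM in untreated SU-DHL6 (-0.36 ± 0.10, adjusted p = 0.0125). It had 294, 277 and 293 CPM in treated OCI-LY3, against 526, 484 and 481 CPM in untreated OCI-LY3 (-0.79 ± 0.10, adjusted p = 3.50e-05). No libraries overlapped between treated and untreated cells, but the SU-DHL6 fall was lost under scaling by total counts (-0.09, adjusted p = 0.521), and the difference of 0.43 ± 0.15 (adjusted p = 0.0342) was lost without any 1 of 9 libraries (adjusted p 0.0525 to 0.0947). Of the Ku genes, XRCC5 fell in OCI-LY3 (-0.46 ± 0.10, adjusted p = 0.00167) and not in SU-DHL6 (-0.10 ± 0.10, adjusted p = 0.455), and its difference missed the threshold (0.36 ± 0.14, adjusted p = 0.0542). XRCC6 was called in neither line, with 95% intervals of -0.31 to 0.02 in SU-DHL6 and -0.25 to 0.08 in OCI-LY3. TP53BP1, which shields break ends from resection, rose by 0.93 ± 0.12 in SU-DHL6 (adjusted p = 2.88e-05) and by 0.64 ± 0.12 in OCI-LY3 (adjusted p = 0.000593). It shares 28.7% of its exonic bases with TUBGCP4 on the opposite strand, which fell in OCI-LY3 (-0.44 ± 0.12) and was not called in SU-DHL6. DCLRE1C, the nuclease that opens hairpin ends, was called in neither line.

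**Figure D2:**
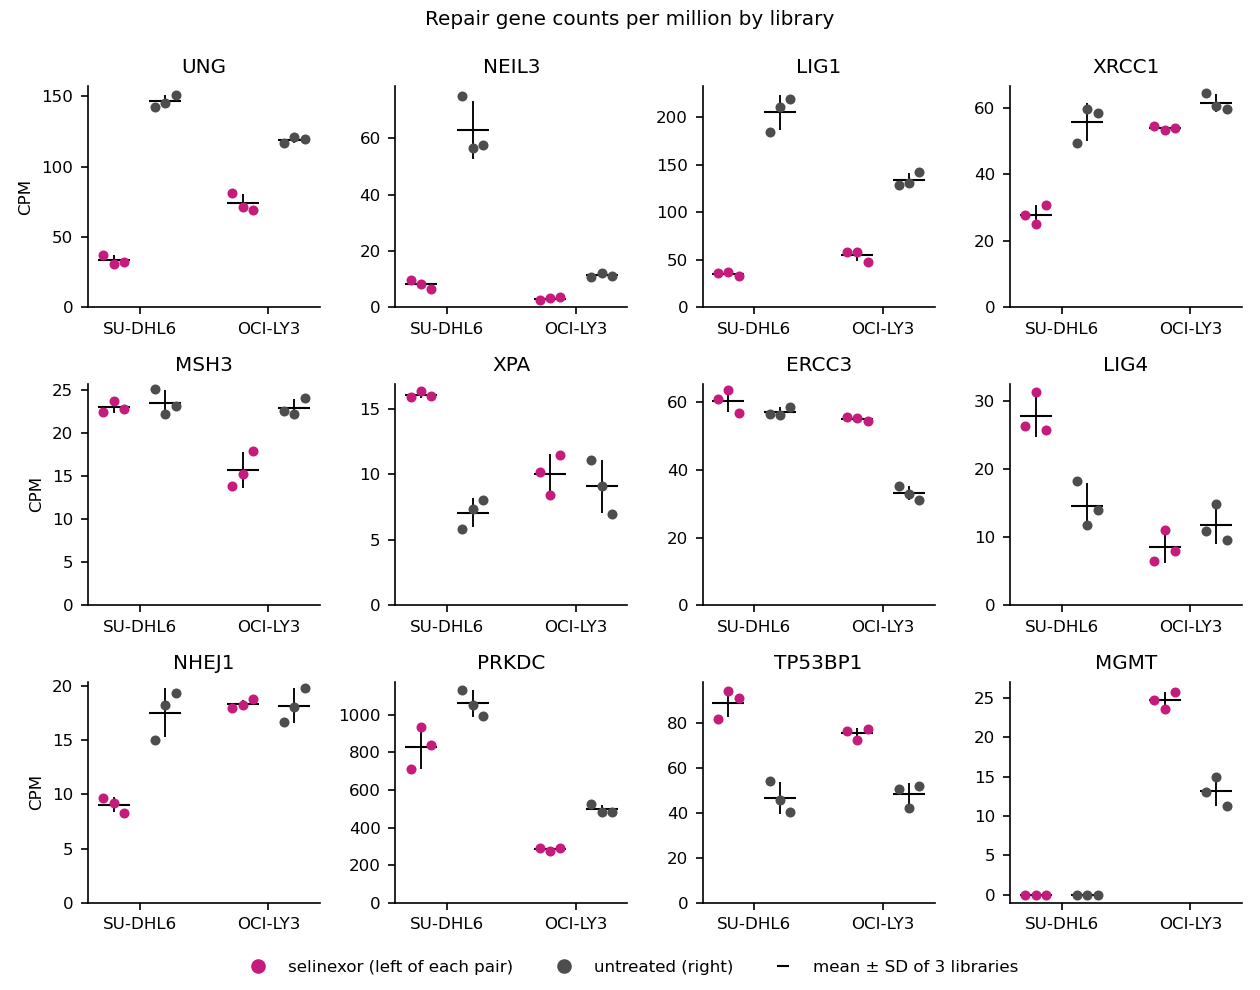
CPM of 12 repair genes in each library, selinexor-treated left of untreated for SU-DHL6 and then OCI-LY3, with the mean and SD of 3 libraries. UNG, NEIL3, LIG1 and PRKDC lie lower in treated libraries of both lines, XPA and LIG4 lie higher in treated SU-DHL6, and MGMT is at 0 in all SU-DHL6 libraries.

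MGMT reverses alkylation at guanine directly and uses itself up in doing so. MGMT (ENSG00000170430, chromosome 10, 129467184 to 129768007) had 24.7, 23.6 and 25.7 CPM in treated OCI-LY3, against 13.1, 14.9 and 11.3 CPM in untreated OCI-LY3. The rise was 0.91 ± 0.16 on the log2 scale, or 1.88-fold (adjusted p = 0.00113), with no overlap. All 6 SU-DHL6 libraries had 0 counts. Against a floor of 3 counts per library, MGMT was at least 64.9-fold higher in untreated OCI-LY3 than in untreated SU-DHL6 and at least 151.5-fold higher in treated OCI-LY3 than in treated SU-DHL6. The floor covers counting error only, and no response of MGMT can be given for SU-DHL6.

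Over the 41 genes with counts in both lines, the log2 fold changes in SU-DHL6 and OCI-LY3 had a Pearson correlation of 0.57, beside 0.23 over all genes tested. These points are genes measured in the same libraries, not replicates, and the value is descriptive. The sign was the same in both lines for 28 of 41 (68.3%), beside 53.4% of all genes. NEIL3 and LIG1 sit at the low end in both lines, and UNG does in SU-DHL6, while MLH3, XRCC4 and PRKDC had lower values than UNG in OCI-LY3.

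**Figure D3:**
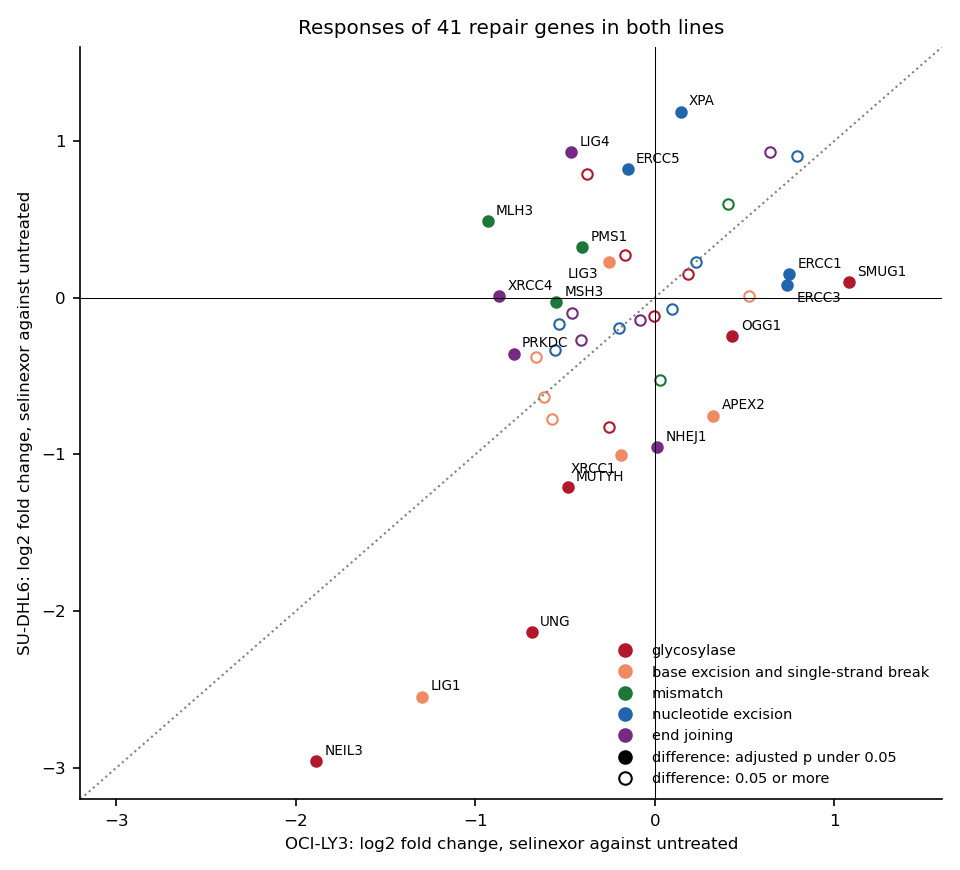
Log2 fold change of 41 repair genes in SU-DHL6 (y axis) and OCI-LY3 (x axis), selinexor-treated against untreated. Filled, named points have an adjusted p under 0.05 for the difference, 9 above and 11 below the dotted line of equal response.

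The untreated lines differed in the level of many repair genes. Apart from MGMT, which the filter kept only for its OCI-LY3 counts, 6 of the 41 genes were higher and 18 lower in untreated OCI-LY3 than in untreated SU-DHL6, beside 33.6% and 33.7% of all genes (67.3% in either direction). The glycosylases NEIL1 (-3.41 ± 0.29), OGG1 (-2.53 ± 0.12) and NEIL3 (-2.47 ± 0.17) and the mismatch gene MSH6 (-2.64 ± 0.25) were lower in OCI-LY3 by the widest margins. PMS2 (-1.32 ± 0.11), DCLRE1C (-1.37 ± 0.22), APEX2 (-1.26 ± 0.13) and PRKDC (-1.09 ± 0.11) were also over 2-fold lower, and ERCC2 was higher (1.30 ± 0.12). OGG1 had 9.40, 9.27 and 9.55 CPM in untreated OCI-LY3 and 49.8, 54.1 and 58.7 CPM in untreated SU-DHL6. MSH6 shares 16.2% of its exonic bases with FBXO11, and NEIL1 26.4% with MAN2C1, neither of which differed between the untreated lines by a called amount.

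Levels of different genes were compared on the deposited FPKM values, which count fragments per length assigned to each gene. How that length was set is not given. As implied by count and FPKM, it exceeded the exonic bases to a degree that varied between genes. For APEX1, with 1886 exonic bases, it exceeded the whole span of the gene. The order of genes below therefore depends on the lengths used. In both untreated lines XRCC6 was highest (137.7 ± 1.21 FPKM in OCI-LY3 and 128.9 ± 7.15 FPKM in SU-DHL6, SD, n = 3), followed by PARP1 (52.4 ± 1.51 and 85.6 ± 1.14 FPKM). XRCC5 came next in OCI-LY3 (43.9 ± 1.23 FPKM) and PRKDC in SU-DHL6 (56.3 ± 5.67 FPKM). UNG stood at 18.0 ± 0.16 FPKM in OCI-LY3 and 23.2 ± 0.50 FPKM in SU-DHL6, the most of any glycosylase in each untreated line, while SMUG1 stood at 0.508 ± 0.114 and 0.871 ± 0.137 FPKM. Of the genes with any counts, the lowest FPKM were those of NEIL1 in OCI-LY3 (0.0391 ± 0.0126) and MLH3 in SU-DHL6 (0.391 ± 0.181). In SU-DHL6, NEIL1 was close above (0.441 ± 0.0411 FPKM) and within the spread of MLH3. Per exonic base, ERCC6 lay below MLH3 in untreated SU-DHL6 (mean counts of 201.7 over 16737 bases and 118.7 over 8363). On FPKM the ligases followed the order LIG1, LIG3, LIG4 in both untreated lines. Values were 11.8 ± 0.59, 2.25 ± 0.185 and 0.896 ± 0.207 FPKM in OCI-LY3 and 18.9 ± 1.05, 1.84 ± 0.0525 and 1.18 ± 0.307 FPKM in SU-DHL6. Per exonic base, LIG4 lay above LIG3 in untreated SU-DHL6 (mean counts of 216.3 over 4387 bases and 482 over 12919).

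**Figure D4:**
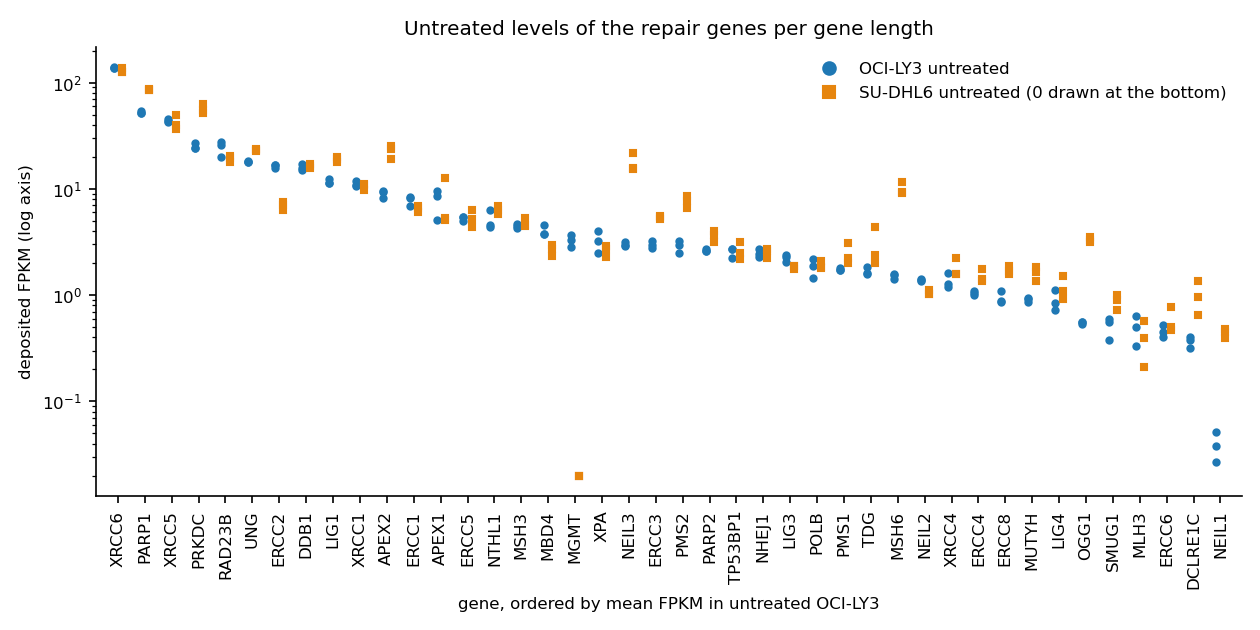
Deposited FPKM (log axis) of each repair gene in the 3 untreated libraries of OCI-LY3 (circles) and SU-DHL6 (squares), ordered by the OCI-LY3 mean. XRCC6 is at the high end in both lines, NEIL1 at the low end in OCI-LY3, and MGMT, at 0 in SU-DHL6, is drawn at the bottom.

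Of 62 other genes listed for the same pathways, 60 were tested. They had 10 rises (16.7%) and 27 falls (45.0%) in SU-DHL6, beside 20.4% and 22.8% of all genes, and 9 rises (15%) and 28 falls (46.7%) in OCI-LY3, beside 22.2% each. The counts of each list below are read against the same shares. Falls were the main change in the mismatch list, which holds the strand excision and resynthesis factors: none of 14 rose, and 10 fell in SU-DHL6 and 12 in OCI-LY3. EXO1, the mismatch exonuclease, fell by 2.04 ± 0.12 in SU-DHL6 and 1.85 ± 0.12 in OCI-LY3. PCNA, the sliding clamp of replication, fell by 2.81 ± 0.11 in SU-DHL6, and RFC4, a subunit of the clamp loader, fell by 1.51 ± 0.10 in OCI-LY3. Among 10 other base excision genes, none rose and 5 fell in SU-DHL6, led by the flap nuclease gene FEN1 (-2.04 ± 0.10) and by TDP1 (-0.56 ± 0.11). They had 3 rises and 3 falls in OCI-LY3, with PARP3 (1.10 ± 0.13) and the single-strand break gene APTX (0.73 ± 0.10) among the rises and HMGB1 (-1.13 ± 0.09) and FEN1 (-0.92 ± 0.10) among the falls.

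The 20 other nucleotide excision genes had 7 rises and 7 falls in SU-DHL6 and 5 of each in OCI-LY3. DDB2, the damage-binding partner of DDB1, fell by 1.16 ± 0.13 in SU-DHL6 and rose by 1.30 ± 0.13 in OCI-LY3, a difference of -2.46 ± 0.18 (adjusted p = 4.50e-07), whereas DDB1 itself was called in neither line. The ubiquitin ligase scaffold gene CUL4B (0.99 ± 0.12) and the TFIIH subunit gene GTF2H5 (0.89 ± 0.14) rose in SU-DHL6, and CETN2 (1.34 ± 0.15) rose in OCI-LY3. RPA2, a subunit of the single-strand binding protein, fell by 1.01 ± 0.12 in SU-DHL6 and 0.57 ± 0.12 in OCI-LY3. Of 16 other end joining genes tested, 3 rose and 5 fell in SU-DHL6 and 1 rose and 8 fell in OCI-LY3. POLQ, the polymerase of the alternative end joining route, fell in both lines (-2.07 ± 0.20 and -1.99 ± 0.20). SHLD2, a subunit of the shieldin complex that acts with TP53BP1, rose in SU-DHL6 (0.97 ± 0.15), and MAD2L2, another shieldin subunit, fell there (-1.25 ± 0.13). In OCI-LY3, the histone variant gene H2AFX fell (-1.45 ± 0.10) and APLF, a factor recruited to breaks through poly(ADP-ribose), rose (0.86 ± 0.26).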

How the data were processed

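Per the file headers, the authors deposited for each gene a read count and an FPKM value (fragments scaled for gene length and library size) in each of 12 libraries from human cell lines, each column named by library. Neither the aligner nor the counting tool or strandedness is given in the sources used here. Mouse builds (GRCm38 and mm10) are named in the submitters' processing notes, whereas the identifiers are human. Of 58302 genes, 58039 were found in GENCODE release 29, 97.6% of them with identical coordinates, so coordinates are on GRCh38. The deposited FPKM values followed from the counts over 9162 genes (the length implied by count and FPKM varied across libraries by no more than 1.000019 times). That length was not the exonic length of the annotation, and its ratio to it varied between repair genes. FPKM values were used for levels between genes only. The deposited counts were whole numbers, and 235 genes had a count of exactly 1 in every library, so that some may be rounded estimates was not tested. Replicates correlated at 0.981 to 0.986 on log2 CPM. The first principal component (79.7% of the variance) separated the lines.

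The test used edgeR 4.0.16 under R 4.3.3: filterByExpr by group, TMM factors, 1 negative binomial model of the 4 groups over all 12 libraries, robust quasi-likelihood F tests and Benjamini-Hochberg adjustment over 16474 genes. There were 4 contrasts: the response to selinexor within SU-DHL6 and within OCI-LY3, the SU-DHL6 response minus the OCI-LY3 response, and untreated OCI-LY3 minus untreated SU-DHL6. SE was obtained by dividing the log2 fold change by the root of F, and CPM refers to TMM-scaled totals. The test was checked on simulated data. Replicate numbers were not used as pairs, since same-numbered treated and untreated libraries did not deviate together.

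The 42 genes and all lists were chosen with earlier results of these data known. Values in every library are given for genes called with at least a 2-fold change in a line, called for the difference, or called in opposite directions, at most 5 per role. From each list of other pathway genes, the text draws on at most 2 per direction and line, those of smallest adjusted p. The library values of TDG, APEX1, MSH6 and MGMT, the overlapping genes and all other repair genes given by fold change were named after their values were seen. Alternatives were other size factors, DESeq2 1.42.0, other low-count filters, a stricter threshold, fits of single lines, the replicate block, offsets for GC content and length, and leaving out each library. Shared exonic bases were computed from the GENCODE annotation. Promoters are RefSeq's.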

Additional observations from a re-analysis of the deposited data

Results flagged for a closer look

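The response to selinexor differed between the lines for 20 repair genes by the edgeR test of the difference (SU-DHL6 minus OCI-LY3, log2, 36.9% of all genes called in either direction). SU-DHL6 had the lower response for UNG (-1.45), LIG1 (-1.25), APEX2 (-1.08), NEIL3 (-1.07), SMUG1 (-0.98), NHEJ1 (-0.97), XRCC1 (-0.81), MUTYH (-0.72), OGG1 (-0.68), ERCC3 (-0.66) and ERCC1 (-0.60). SU-DHL6 had the higher response for MLH3 (1.42), LIG4 (1.39), XPA (1.04), ERCC5 (0.97), XRCC4 (0.88), PMS1 (0.73), MSH3 (0.52), LIG3 (0.48) and PRKDC (0.43). The differences of UNG, NEIL3, LIG1, APEX2, XRCC1, ERCC5, XPA, LIG4 and NHEJ1 kept direction and call in each of the 20 alternative settings run for the difference. Dose and time may differ between the lines and cannot be told apart from the line.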

How the results depend on the processing

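Over 21 alternative settings, 3180 of 3403 results for single repair genes kept their direction and their side of the threshold, 137 lost a call, 83 gained one and 3 reversed. Of the 85 calls, 57 held in every setting run for them. Scaling by total counts moved the median difference of all genes from -0.02 to 0.35. It split all calls into 5451 rises and 2367 falls in SU-DHL6 (3365 and 3758 with TMM). It gave 13 repair gene rises in SU-DHL6 and 17 higher and 6 lower differences, beside 4891 and 1817 differences over all 16474 genes. It also ended the difference calls of SMUG1, OGG1, MUTYH, ERCC1 and ERCC3 and made that of XRCC6 a call (0.32, adjusted p = 0.0363, the sign turned). Offsets for GC content and length turned the sign of the ERCC6 difference (-0.52, adjusted p = 0.0466) and ended the difference calls of PRKDC (0.17, adjusted p = 0.142), MUTYH (-0.39, adjusted p = 0.142), SMUG1 (-0.67, adjusted p = 0.124), MSH3 (0.33, adjusted p = 0.0634), MLH3 (1.08, adjusted p = 0.0537), XRCC4 (0.55, adjusted p = 0.0798) and ERCC1 (-0.32, adjusted p = 0.0650). At an adjusted p under 0.01, 3 differences were higher, beside 1727 of all 16474 genes. Those of UNG, OGG1, NEIL3, APEX2, XRCC1, LIG1, ERCC3 and NHEJ1 stayed called as lower, beside 2214 of all genes. Leaving out 1 library gave 4 to 11 higher differences, with 9 in the full set, 5 without untreated OCI-LY3 library 3, 5 without treated OCI-LY3 library 1 and 4 without treated SU-DHL6 library 2. Over all genes, higher differences numbered 2798 in the full set. They ranged from 2380 (without treated SU-DHL6 library 2) to 3147 (without untreated SU-DHL6 library 1). MSH6 in OCI-LY3 ranged from -0.43 (without treated library 1, adjusted p = 0.00940) to 0.23 (without treated library 3). Without untreated SU-DHL6 library 1, SU-DHL6 gained calls for OGG1 (-0.31, adjusted p = 0.0393), MLH3 (0.81, adjusted p = 0.0453) and PMS1 (0.49, adjusted p = 0.0120). NEIL2 gained one there without treated library 3 (0.47, adjusted p = 0.0457), and MSH6 without treated OCI-LY3 library 1 or 3 (adjusted p 0.000706 to 0.0444). The difference gained a call in at least 1 such fit for TDG, NTHL1, NEIL2, POLB, RAD23B, XRCC5 and TP53BP1. Beyond what the setting itself changes, the cause was not tested. Between the untreated lines, leaving out a library ended calls for UNG (without untreated SU-DHL6 library 3, adjusted p = 0.0605), SMUG1, NEIL2, PARP2, PMS1, ERCC1 and ERCC4, and gave calls for TDG, NTHL1, XPA, XRCC5 and APEX1 (0.67 without untreated SU-DHL6 library 3, adjusted p = 0.0237, against 0.07).

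Same-numbered treated and untreated libraries had correlations of 0.007, 0.005 and 0.013 in OCI-LY3 and -0.12, -0.022 and 0.05 in SU-DHL6. No shared deviation by number was seen, which does not show whether cultures were set up in pairs. With the replicate block, 7 repair genes rose and 11 fell in SU-DHL6, beside 2964 and 3396 of all 16474 genes. In OCI-LY3, 9 rose and 12 fell, beside 3305 and 3280 of all genes. The difference was called higher for 6 and lower for 10, beside 2408 and 2808 of all genes. The block gave calls for TDG in SU-DHL6 (0.78, adjusted p = 0.00903) and for its difference. DESeq2 called the difference higher for 12 and lower for 11, beside 2775 and 3463 of all 16474 genes. Low counts limit NEIL1 in OCI-LY3 and all MGMT values in SU-DHL6.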
